A study of Homo sapiens with 12 samples.

Results

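The genes described here are 38 human genes of meiosis and of the piRNA pathway, chosen by name as genes whose transcripts are typical of germ cells, out of 58735 genes in the count tables. All 38 were matched to the tables through GENCODE release 29. Their RNA was sequenced in HAP1, a leukemia-derived human cell line with a nearly haploid genome, either wild type or carrying a knockout of SETDB1, which encodes a histone H3 lysine methyltransferase that marks silent chromatin. Both genotypes were grown in the same medium (IMDM with FBS) with no other treatment named, and the labels do not say whether the knockout is 1 clone or how it was made. Each genotype had 3 non-directional libraries, labelled as biological replicates, on which the results rest, and 3 directional libraries, which were described separately. The question was which germline genes were transcribed in these cells and how their levels differed once SETDB1 was lost.

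Meiosis pairs homologous chromosomes along a protein axis of cohesin, joins them by the synaptonemal complex and exchanges DNA between them by programmed breaks. The piRNA pathway arms PIWI proteins with small RNAs that recognise transposon transcripts in the germ line, and Tudor-domain proteins assemble the machinery around them. In somatic cells most genes of both programmes are kept silent, many of them through methylation of CpG-dense promoters and through repressive histone marks. HAP1 itself arose during an attempt to reprogramme a leukemia line with pluripotency factors, so it is not a typical blood cell.

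The 6 non-directional libraries held 8921959 to 10199215 gene counts. A minimum of 3 counts, taken as the smallest amount the depth can show, stood for 0.294 to 0.336 counts per 1000000 gene counts (CPM). SETDB1, the targeted gene, was lower in every knockout library, at 11.5 ± 0.637 CPM against 59.97 ± 4.37 CPM (SD, n = 3 each). The blood cell markers SPI1, HBG1, HBG2 and CD33 had no read in any of these libraries, and PTPRC, the pan-leukocyte marker, averaged 0 CPM in the wild type and 0.0328 CPM in the knockout. The list of 13 blood cell markers summed to 109.6 to 112 CPM in wild-type and 86.0 to 89.4 CPM in knockout libraries, nearly all of it from GATA2 (75.6 and 66.1 CPM), KIT (18.8 and 16.6 CPM) and TAL1 (16.1 and 3.24 CPM). TAL1 fell by 2.32 on the log2 scale (edgeR adjusted p = 1.6e-25). Of 6 markers of spermatids, 5 (PRM1, PRM2, TNP1, TNP2 and ACR) had no read either, and the list summed to at most 0.787 CPM. Of 6 markers of primordial germ cells, SOX17 averaged 0 and 0.0656 CPM and NANOS3 0.204 and 0.135 CPM in wild type and knockout, and the list summed to 76.1 to 78.9 and 62.1 to 69.7 CPM, mostly from TFAP2C and KIT. Of 6 fibroblast markers none was at 0 throughout, and their sum was 309 to 319 and 263 to 268 CPM. POU5F1 (559 and 521 CPM) and SOX2 (789 and 726 CPM) were abundant in both genotypes, although reads of introduced copies cannot be told from those of the genes themselves. Of the 6 pluripotency markers LIN28A, TDGF1 and ZFP42 rose (log2 fold changes 2.38, 2.31 and 3.17). POU5F1 and SOX2 were called lower, with log2 fold changes of -0.11 and -0.13 (edgeR adjusted p = 0.00030 and 5.9e-06). The call of POU5F1 held in 12 of 13 alternatives, and NANOG had too few reads to be tested. The sum of the list was 1348 to 1369 CPM in wild-type and 1316 to 1334 CPM in knockout libraries. The part of these markers in the results below was not tested. The 3 knockout libraries agreed within sampling noise (chi-square per degree of freedom 0.956 to 0.991, smallest p 0.773), whereas the wild-type pairs gave 1.82, 1.03 and 2.00 (largest p 0.003).

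Most of the 38 genes were silent or nearly so. No read fell on 11 of them in any of the 6 libraries: PIWIL1, a PIWI protein; MAEL, ASZ1, MOV10L1, TDRD1 and TDRD9, all components of piRNA biogenesis; SPO11, the enzyme that cuts DNA to start recombination; RNF212, a crossover regulator; STRA8, the switch into meiosis; BRDT, a testis bromodomain protein; and DPPA5. This was 28.9% of the list, against 18.9% of 19951 protein-coding genes. A further 10 genes (SYCP1, SMC1B, RAD21L1, MEI1, HORMAD2, PIWIL2, DDX4, TDRD6, BOLL and DPPA3) had between 1 and 14 reads summed over the 6 libraries. The remaining 17 had 15 or more. Taking 3 counts in each of the 3 libraries of a genotype as detection, 15 genes were detected in wild-type and 18 in knockout cells. All 15 were detected in both, and the 3 detected in the knockout alone were HORMAD2, TEX14 and TEX101, at 3 to 15 counts per knockout library. Wild-type replicate 2 held 7 counts of TEX14 and 6 of TEX101, the latter above the 5 counts of each knockout library.

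Reads of the list were concentrated in few genes. DPPA4, GTSF1, MEIOB and TEX15 together took 91.1 to 91.9% of the reads of all 38 genes in wild-type libraries and 88.4 to 89.3% in knockout libraries. The list as a whole took 406 to 427 CPM in wild-type libraries and 503 to 521 CPM in knockout libraries. Scaled to length as reads per 1000 exonic bases and per 1000000 gene counts (RPKM), the wild-type order was led by DPPA4 at 41.5 ± 2.31, GTSF1 at 29.7 ± 2.1 and MEIOB at 22.04 ± 1.32 (SD, n = 3). TEX19 followed at 6.87 ± 0.351, TEX15 at 4.25 ± 0.411, DAZL at 2.34 ± 0.273 and DPPA2 at 2.09 ± 0.345. DAZL and DPPA2 lay within the sum of their SDs, whereas the other neighbours in this order were separated by more. The lengths include exonic bases shared with other genes, 43.8% for TEX19. For MEIOB they were 10.3% on its own strand and 7.69% on the opposite strand. Reads there can be left out as ambiguous, so the levels of both may be understated, and their places in the order are uncertain. REC8 stood at 0.738 ± 0.11 RPKM, and no other gene of the list exceeded 0.309 RPKM in the wild type.

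**Figure D1:**
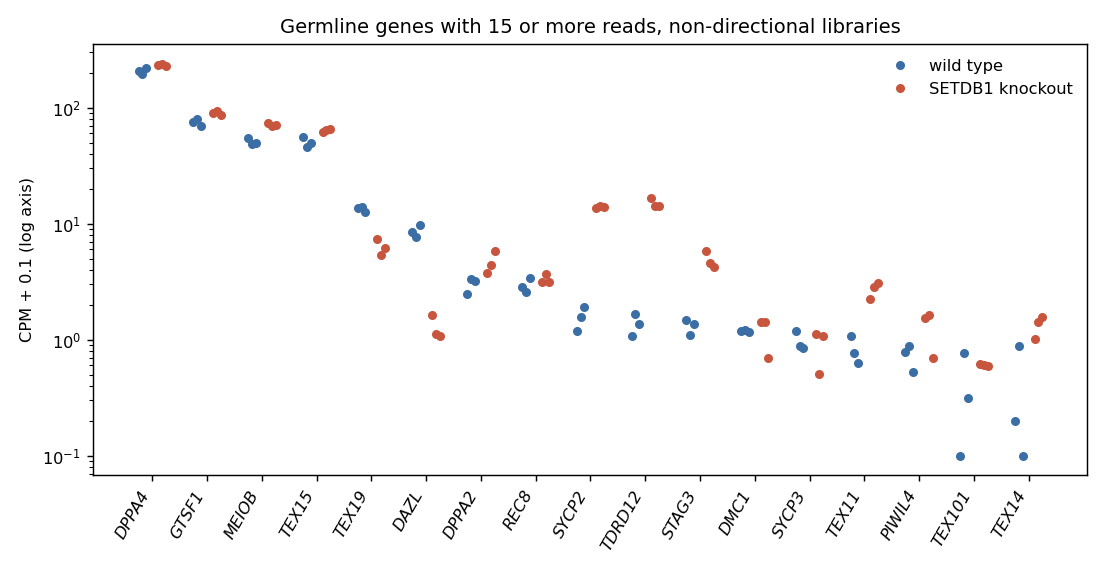
Expression of the 17 germline genes with 15 or more reads, as CPM + 0.1 on a log axis, in 3 wild-type (blue) and 3 SETDB1 knockout (red) non-directional libraries, 1 point per library. SYCP2 and TDRD12 moved from near 1 CPM to near 14 and 15 CPM, DAZL and TEX19 moved down, and the 4 most abundant genes moved little.

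Knockout and wild type were compared with the quasi-likelihood test of edgeR across 13778 genes, of which 25.5% were called higher and 25.9% lower at a Benjamini-Hochberg adjusted p of 0.05. Of the 38 germline genes, 13 (34.2%) had enough reads to be tested, against 61.7% of protein-coding genes. Among the 13, 9 were called higher (SYCP2, STAG3, MEIOB, TEX11, TEX15, GTSF1, TDRD12, DPPA2 and DPPA4), 2 lower (DAZL and TEX19), and REC8 and DMC1 were not called. These counts are a description, since STAG3, TEX11 and TDRD12 passed the filter through their knockout libraries and DAZL and DMC1 through their wild-type libraries, each falling below the minimum in at least 1 library of the other genotype. The other 8 tested genes were above it in all 6 libraries. A change of 1 or more on the log2 scale was reached by 4 genes upward and by 2 downward, where 3.61% and 4.18% of all tested genes did so. The median log2 fold change of the 13 genes was 0.32 beside a median of -0.0012 over all tested genes. In these bulk libraries, fewer cells with a transcript and less transcript per cell cannot be told apart. The 3 knockout libraries lay outside the range of the wild-type libraries in 11 of the 13 tested genes, and in 56.2% of all tested genes. The 11 are the called genes, so their lack of overlap is no support apart from the test.

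**Figure D2:**
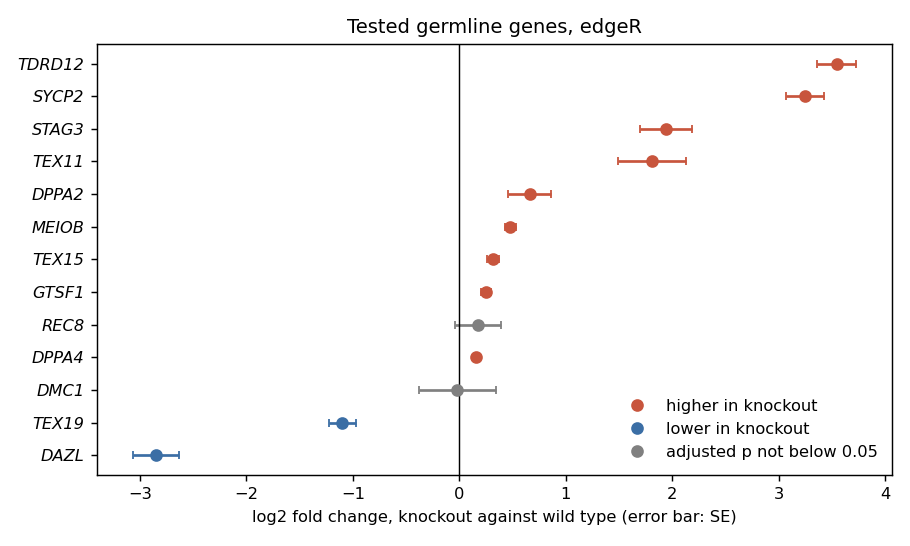
Log2 fold change of the 13 tested germline genes, knockout against wild type, with the standard error of the edgeR fit as bars and colour marking the call. TDRD12 (3.54) and SYCP2 (3.24) stand at the top and DAZL (-2.85) at the bottom, while 5 called genes lie between 0 and 0.7.

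Among genes of the chromosome axis and the synaptonemal complex, SYCP2 and STAG3 rose. SYCP2, an axial element protein, had wild-type counts of 11, 13 and 17 (replicates 1, 2 and 3, the order used throughout) and knockout counts of 133, 138 and 139. All knockout libraries were far above the wild type, with 1.45 ± 0.365 against 13.8 ± 0.254 CPM (SD, n = 3 each), which gave a log2 fold change of 3.24 with SE 0.18 (adjusted p = 4.4e-28 by edgeR). SYCP2 lies on chromosome 20 (59863563 to 59933655, minus strand, GRCh38) and shares its promoter region with FAM217B, which runs the other way. FAM217B rose as well, but by a log2 fold change of 0.23 (edgeR adjusted p = 0.0013). STAG3, the meiotic cohesin subunit that pairs with REC8 (chromosome 7, 100177563 to 100221488, plus strand), had wild-type counts of 14, 9 and 12 and knockout counts of 56, 44 and 42. Its log2 fold change was 1.94 with SE 0.24 (adjusted p = 1.1e-10 by edgeR), with no overlap between the genotypes. STAG3 has near-identical partial copies elsewhere in the genome and shares exonic bases with PVRIG and, on the opposite strand, CASTOR3, so its counts are uncertain.

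REC8, the meiotic kleisin of cohesin, had wild-type counts of 28, 22 and 31 and knockout counts of 30, 35 and 31, and its genotypes overlapped (log2 fold change 0.18, SE 0.22, edgeR adjusted p = 0.52). SYCP3, the partner of SYCP2 in the axis, had 4 to 11 counts in every library and was too low to be tested. SYCP1, which forms the transverse filaments of the synaptonemal complex, had 1 read in a single wild-type library. The cohesin genes SMC1B and RAD21L1 had at most 3 and 1 counts per library. Of 6 somatic counterparts of these genes 5 were tested, with a median log2 fold change of -0.22. Called higher was 1 (20%) and lower were 3 (60%), beside 25.5% and 25.9% of all tested genes. SMC1A fell by 0.41 on the log2 scale, STAG1 by 0.33 and RAD21 by 0.22 (largest edgeR adjusted p = 2.1e-08). STAG2 rose by 0.11 (edgeR adjusted p = 0.0016, lost in part of the alternatives) and SMC3 was not called (edgeR adjusted p = 0.20).

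Among recombination genes TEX11, MEIOB and TEX15 rose. TEX11, an X-linked protein needed for crossover formation (chromosome X, 70528940 to 70908731, minus strand), had wild-type counts of 10, 6 and 5 and knockout counts of 21, 27 and 30. This was 0.728 ± 0.229 against 2.62 ± 0.419 CPM (SD, n = 3 each), which gave a log2 fold change of 1.81 with SE 0.32 (adjusted p = 1.2e-06 by edgeR). MEIOB, a single-strand DNA-binding protein of meiotic recombination (chromosome 16, 1833987 to 1884294, minus strand), was already abundant in the wild type, with 553, 434 and 464 counts, and reached 722, 681 and 716 in the knockout. The genotypes did not overlap in CPM, and the log2 fold change was 0.48 with SE 0.054 (adjusted p = 1.5e-12 by edgeR). TEX15 (chromosome 8, 30831544 to 30913003, minus strand), which acts in double-strand break repair and in piRNA-directed silencing, had wild-type counts of 568, 411 and 465 and knockout counts of 603, 622 and 661, and a log2 fold change of 0.32 with SE 0.056 (adjusted p = 1.3e-06 by edgeR). DMC1, the meiotic recombinase, had wild-type counts of 11, 10 and 10 and knockout counts of 13, 13 and 6, which overlapped (edgeR adjusted p = 0.97). HORMAD2, an axis checkpoint protein, had wild-type counts of 1, 0 and 0 and knockout counts of 3, 4 and 4. MEI1 had a single read in 1 wild-type library. Of this group, SPO11 and RNF212 had no read.

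Within the piRNA pathway, TDRD12 and GTSF1 were the only genes with enough reads to be tested, and both rose. TDRD12, a Tudor-domain helicase of secondary piRNA production (chromosome 19, 32719753 to 32829580, plus strand), had wild-type counts of 10, 14 and 12 and knockout counts of 163, 138 and 143. The knockout libraries stood far above the wild type, at 14.9 ± 1.5 against 1.28 ± 0.294 CPM (SD, n = 3 each), and the log2 fold change of 3.54 with SE 0.18 (adjusted p = 7.5e-30 by edgeR) was the highest of the tested germline genes. GTSF1, a zinc finger protein that assists PIWI proteins (chromosome 12, 54455950 to 54473602, minus strand), had wild-type counts of 772, 711 and 650 and knockout counts of 882, 912 and 869. Its change was small but larger than the spread between replicates, with 74.9 ± 5.31 against 89.6 ± 3.80 CPM (SD, n = 3 each), which gave a log2 fold change of 0.25 with SE 0.048 (adjusted p = 6.6e-06 by edgeR).

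Transcripts of the PIWI proteins themselves were few or absent. PIWIL4, a nuclear PIWI protein, had wild-type counts of 7, 7 and 4 and knockout counts of 14, 15 and 6, which overlapped in CPM, and it shares exonic bases with FUT4 and an opposite-strand transcript. PIWIL4 was called only without knockout replicate 3, its lowest knockout library (log2 fold change 1.21). It reached the filter's minimum in no wild-type library. PIWIL2 had at most 1 count per library and PIWIL1 none. DDX4, the germ cell helicase VASA, had 1 read in the 6 libraries, and TDRD6, a Tudor-domain scaffold, had 2.

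The largest fall was that of DAZL, an RNA-binding protein that promotes translation in germ cells (chromosome 3, 16586792 to 16670306, minus strand). DAZL had wild-type counts of 85, 68 and 90 and knockout counts of 15, 10 and 10. No knockout library came near the wild type, with 8.51 ± 0.990 against 1.18 ± 0.308 CPM (SD, n = 3 each), which gave a log2 fold change of -2.85 with SE 0.21 (adjusted p = 1.4e-20 by edgeR). BOLL, a relative of DAZL, had wild-type counts of 1, 0 and 0 and knockout counts of 3, 2 and 2, and STRA8 had none.

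Among genes of early germ cells and pluripotency the directions differed. TEX19, a protein linked to transposon control in germ cells (chromosome 17, 82359247 to 82363776, plus strand), had wild-type counts of 137, 124 and 118 and knockout counts of 71, 52 and 62, a log2 fold change of -1.10 with SE 0.13 (adjusted p = 6.9e-12 by edgeR). The genotypes did not overlap, and 43.8% of its exonic bases are also covered by a transcript on the opposite strand, AC132938.4. DPPA4, a DNA-binding SAP-domain protein of pluripotent cells (chromosome 3, 109326141 to 109337572, minus strand), was the most abundant gene of the list, with wild-type counts of 2113, 1745 and 2055 and knockout counts of 2269, 2344 and 2298. Its log2 fold change was 0.16 with SE 0.035 (adjusted p = 7.0e-05 by edgeR), although the 8 tested genes within 2 Mb, germline genes aside, had a median of 0.16 themselves, and subtracting it left -0.0053. DPPA2, its neighbour and binding partner (chromosome 3, 109293788 to 109316517, minus strand), had wild-type counts of 24, 29 and 29 and knockout counts of 36, 42 and 58, a log2 fold change of 0.66 with SE 0.20 (adjusted p = 0.0048 by edgeR). The call of DPPA2 was lost without wild-type replicate 1 (edgeR adjusted p = 0.058), without knockout replicate 3 (edgeR adjusted p = 0.098) and under the DESeq2 Wald test (adjusted p = 0.057). Over the 13 alternatives with a test its adjusted p lay between 0.0014 and 0.098. DPPA3 had 2, 1 and 1 counts in the knockout and none in the wild type, which is below what the depth can show.

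Genes of later spermatogenesis were too low to be tested. TEX14, a component of the bridges between germ cells (chromosome 17, 58556678 to 58692055, minus strand), had wild-type counts of 1, 7 and 0 and knockout counts of 9, 13 and 15, without overlap. Without the filter on low counts it was called higher (log2 fold change 2.09, edgeR adjusted p = 0.00012), and so was HORMAD2 (log2 fold change 2.99, edgeR adjusted p = 0.031). TEX14 was also called without wild-type replicate 1, 2 or 3 or without knockout replicate 1, with log2 fold changes from 1.53 to 4.30. The 4.30 came without wild-type replicate 2, the library with 7 counts. With all libraries TEX14 reached the filter's minimum in 2 knockout libraries and in no wild-type library. These calls therefore rest on its knockout libraries and are no separate support. TEX101, a sperm surface protein, had 0, 6 and 2 counts in the wild type and 5 in each knockout library.

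Changes of the germline genes were set beside those of the other tested genes around them. For the 13 tested genes, the median log2 fold change of the other tested genes within 2 Mb lay between -0.12 and 0.16. The 13 neighbours of SYCP2 ranged from -0.35 to 0.82, the 30 neighbours of TDRD12 from -1.54 to 1.59, the 27 neighbours of TEX11 from -0.56 to 1.25 and the 19 neighbours of DAZL from -0.41 to 1.45, so these 4 genes lay outside the range of their neighbours. STAG3 lay within the range of its 69 neighbours, which reached 2.53. TEX19 lay within that of its 63 neighbours, which reached down to -1.16. REC8, DMC1, MEIOB, TEX15, GTSF1, DPPA2 and DPPA4 also lay within the range of their neighbours. DPPA2, at 0.66, was close to its highest neighbour at 0.69.

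**Figure D3:**
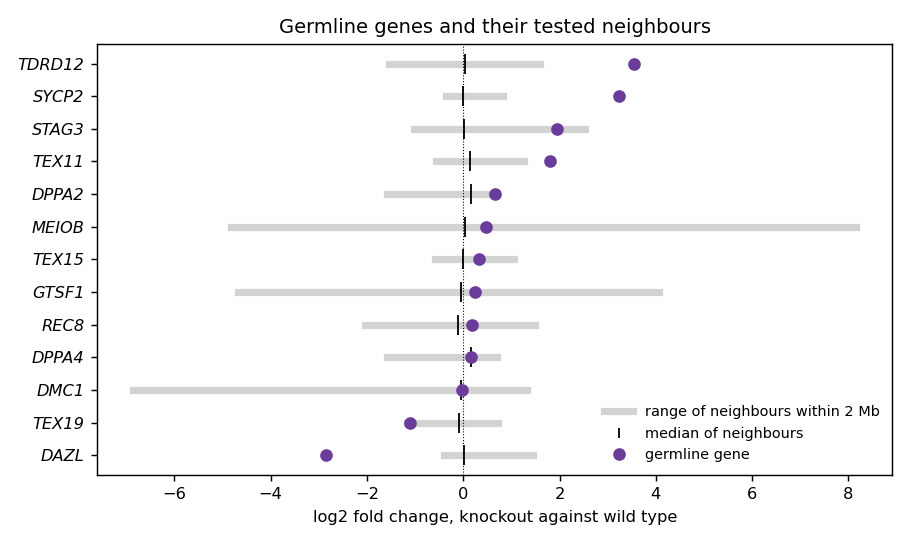
Log2 fold change (knockout against wild type) of each of the 13 tested germline genes (purple point) beside the range (grey bar) and median (black tick) of the other tested genes within 2 Mb. TDRD12, SYCP2, TEX11 and DAZL lie outside the range of their neighbours, and all medians lie between -0.12 and 0.16.

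The promoters of the genes ranged from CpG-dense to CpG-poor. RefSeq gave a promoter on GRCh38.p14 for 32 of the 38 genes (MEIOB, PIWIL2, PIWIL4, TEX14, TEX15 and TEX19 had none). In the 250 bases before the start, SYCP2 held 33 CpG dinucleotides, DAZL 28 at its upstream start and TDRD12 20, whereas TEX11 held 9, GTSF1 8, DPPA2 7 and DPPA4 3. The median was 11 over 35116 promoter entries and 19.5 over the 40 entries of the list, and genes with no read ranged from 51 at the upstream start of MAEL to 0 at the upstream start of STRA8. The part of each window outside annotated exons is shown for the 3 genes that changed most and for the 2 most abundant ones, with CpG dinucleotides in capitals and in the direction of the gene. The runs lie at chr20:59933656-59933763 (minus strand, ending 18 bases before the start), chr19:32719596-32719752 (plus strand, ending 14 bases before the start), chr3:16605500-16605673 (minus strand, ending 76 bases before the start), chr12:54473603-54473852 (minus strand) and chr3:109337573-109337796 (minus strand, ending 26 bases before the start), in the order given.
SYCP2: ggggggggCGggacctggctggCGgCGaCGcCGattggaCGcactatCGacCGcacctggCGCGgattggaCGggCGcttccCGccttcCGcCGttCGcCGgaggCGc
TDRD12: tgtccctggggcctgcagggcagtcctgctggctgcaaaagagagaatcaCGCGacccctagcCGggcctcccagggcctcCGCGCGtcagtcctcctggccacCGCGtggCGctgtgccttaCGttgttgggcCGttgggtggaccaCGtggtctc
DAZL: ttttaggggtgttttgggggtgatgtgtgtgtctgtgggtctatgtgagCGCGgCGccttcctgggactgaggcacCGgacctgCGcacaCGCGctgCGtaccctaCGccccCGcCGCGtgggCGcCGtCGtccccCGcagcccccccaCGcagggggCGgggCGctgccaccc
GTSF1: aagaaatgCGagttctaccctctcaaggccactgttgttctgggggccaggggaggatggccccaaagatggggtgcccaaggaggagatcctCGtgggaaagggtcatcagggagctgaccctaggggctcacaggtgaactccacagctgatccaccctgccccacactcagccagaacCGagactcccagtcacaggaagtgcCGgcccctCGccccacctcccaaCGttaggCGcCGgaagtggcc
DPPA4: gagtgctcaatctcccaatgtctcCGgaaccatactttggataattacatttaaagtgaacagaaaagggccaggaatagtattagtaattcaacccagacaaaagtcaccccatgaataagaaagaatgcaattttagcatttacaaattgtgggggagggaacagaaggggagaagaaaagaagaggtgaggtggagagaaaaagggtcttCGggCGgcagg

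Letters known as binding motifs of germline gene regulators were searched on both strands of the 250 bases before each RefSeq start. The E2F motif TTCCCGCC, bound among others by the repressor E2F6, was found for SYCP2 alone of the 32 genes (3.12%, against 3.31% of 27305 genes with a promoter), and lies in the run printed above. Its shorter core TCCCGCC, which that motif contains, was found for 7 genes (BOLL, HORMAD2, PIWIL1, RNF212, STAG3, SYCP2 and SYCP3), or 21.9% against 16.0%. The E-box CACGTG, recognised by MGA and MAX among others, was found for 6 genes (BRDT, DAZL, MAEL, STAG3, TDRD1 and TDRD12), or 18.8% against 7.73%, and its copy at TDRD12 lies near the end of the printed run. The motif CNCCTCAG of STRA8 and MEIOSIN was found for DMC1, HORMAD2, RNF212, SPO11 and TDRD6 (15.6% against 8.67%). Genes with and without a motif included silent and changed ones. The E2F and E-box motifs contain a CpG, and promoter entries of the list held more CpG than all entries (medians 19.5 and 11). The shares are therefore not like for like, and the part of CpG content in them was not tested. A match is a string of letters and was not tested for binding.

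Transcripts of the factors that keep germline genes silent were present in both genotypes. A list of 12 covered the repressor complex built on MGA and PCGF6 and the DNA methylation machinery. All 12 were tested, with a median log2 fold change of -0.05. Of them 3 (25%) were called higher and 4 (33.3%) lower, beside 25.5% and 25.9% of all tested genes. MGA rose by a log2 fold change of 0.59 (edgeR adjusted p = 1.7e-25), the DNA methyltransferase DNMT3B by 0.43 (1.4e-09) and E2F6 by 0.32 (3.5e-05). DNMT1, which maintains DNA methylation, fell by 0.23 on the log2 scale (edgeR adjusted p = 1.0e-10), and the calls of L3MBTL2 and CBX3, both lower, were lost in part of the alternatives.

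Other genes of meiosis and of the piRNA pathway were read from lists that did not overlap the 38 genes. Of 34 further meiosis genes, 14 were tested, with a median log2 fold change of 0.10. Of the 14, 7 (50%) were called higher and 1 (7.14%) lower, beside 25.5% and 25.9% of all tested genes. The call of YTHDC2, among the 7 (log2 fold change 0.12, edgeR adjusted p = 0.029), held in 5 of 13 alternatives, with adjusted p-values up to 0.41. HORMAD1, an axis protein that recruits the recombination machinery, had no wild-type read and knockout counts of 17, 21 and 14, which is at least 5.54-fold higher taking 3 counts per wild-type library (edgeR adjusted p = 2.8e-11). HORMAD1 thus passed the filter through its knockout libraries alone, so its call and the count of 7 are a description. MEI4, needed for meiotic break formation, rose by a log2 fold change of 2.59 (edgeR adjusted p = 2.3e-06), C19orf57, a partner of the BRCA2-bound recombination factors, by 0.94 (1.3e-06), and C14orf39, a central element protein of the synaptonemal complex, by 0.90 (0.00016). SUN1, a nuclear envelope protein that is also used outside meiosis, was the gene called lower, with -0.22. Of 17 further piRNA pathway genes, 6 were tested (median log2 fold change 0.09). Called higher were 2 (33.3%) and lower none, beside the same 25.5% and 25.9%. DDX25, a germ cell helicase, rose by 1.77 on the log2 scale (edgeR adjusted p = 7.9e-07) and TDRD7, a Tudor-domain protein, by 1.23 (1.8e-17). PLD6, TDRKH, TDRD5 and MYBL1 were tested without a call, and the smallest of their edgeR adjusted p-values was 0.055.

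L1 elements (LINE-1, an autonomous retrotransposon family) near the germline genes were read from tables that give a signal for each long L1 copy. Within 20 kb of the 38 genes lay 16 such copies, 7 of them in TEX11, and the only one with enough reads to be tested was an L1PA4 copy on chromosome 3 (16676613 to 16682753) upstream of DAZL. It lies 6.307 kb beyond the longest DAZL transcript of GENCODE and 71.19 kb upstream of the RefSeq start. Recovered reads of this copy numbered 14, 14 and 11 for wild-type and 64, 59 and 65 for knockout libraries, opposite to DAZL itself, and the genotypes did not overlap. On the log2(deposited value + 1) scale it rose by 1.79 (SE 0.24, limma adjusted p = 2.4e-05). The edgeR test on recovered reads gave a log2 fold change of 2.19 (adjusted p = 3.8e-08). Of 816 L1 loci tested, 19.1% were called higher and 9.31% lower by limma (30% and 4.41% by edgeR). The copies within BOLL, DDX4, TDRD12, SYCP1 and TEX11 had at most 15 reads in any library. Reads of nearly identical L1 copies can be misplaced, and the deposited tables do not say how such reads were treated.

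**Figure D4:**
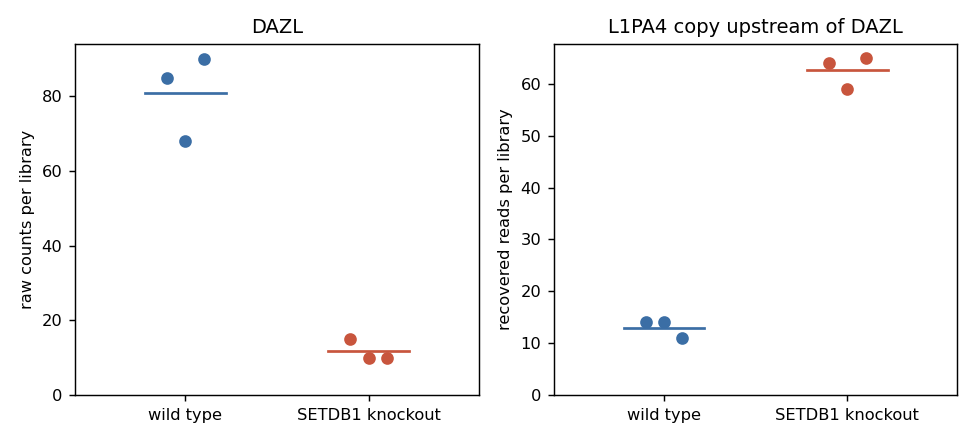
Raw counts of DAZL (left) and recovered reads of the L1PA4 copy upstream of it (right) in the 3 wild-type and 3 knockout non-directional libraries, with 1 point per library and a bar at the mean. DAZL falls from 68 to 90 counts to 10 to 15, and the L1PA4 copy rises from 11 to 14 reads to 59 to 65.

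The directional libraries held 532021 to 676691 gene counts, and 94.6% of their reads were placed in no gene. Only 20 of the 38 genes had a read there, and 35 had at most 10 counts in each library. Their counts did not follow the abundance of the non-directional libraries: DPPA4 had 3 to 7 counts per library, whereas SYCP3 had wild-type counts of 188, 183 and 149 and knockout counts of 232, 231 and 204. SYCP3 overlaps exons of CHPT1 on the opposite strand, and CHPT1 had 1210 to 1713 counts per non-directional library but 6 to 24 per directional library. The strand setting of the counting is not given in the sources used here, so directional counts of these genes were not read as their own transcription and were not tested.

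Directional counts were also read for 5 genes annotated on the strand opposite to germline genes. Among 9653 genes with 15 or more directional reads, 10.8% were higher and 11.5% lower in the knockout without overlap and with at least 3 counts in each library of the higher genotype. CHPT1, opposite to SYCP3, and IPO4, opposite to REC8, overlapped between genotypes there, at 6 to 24 and 0 to 2 counts per library. The non-directional counts of CHPT1 rose (log2 fold change 0.25, edgeR adjusted p = 2.1e-08). AC132938.4, annotated on the strand opposite to TEX19 and covering 43.8% of its exonic bases, had no count in the non-directional libraries, and 100, 112 and 81 counts in the directional wild type against 49, 36 and 35 in the directional knockout. This was 160.2 ± 7.04 against 68.4 ± 8.54 CPM (SD, n = 3 each), lower in all 3 knockout libraries. CASTOR3, which overlaps STAG3, had directional wild-type counts of 5, 1 and 4 and knockout counts of 16, 12 and 16, while its non-directional counts of 27 to 35 per library gave no call (edgeR adjusted p = 0.68). FAHD1, which overlaps MEIOB, had directional wild-type counts of 147, 157 and 154 and knockout counts of 238, 243 and 235, and its non-directional counts rose (log2 fold change 0.27, edgeR adjusted p = 0.00033). Which strand these directional reads came from was not tested, so they were not read as values of the germline genes.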

How the data were processed

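RNA sequencing tables of 12 HAP1 libraries were used. Titles gave the genotype, kit and replicate of each library. The submitters' processing notes name Trim Galore 0.4.4, STAR 2.6.0a, SAMtools 1.9, Picard 2.23.8, HTSeq 0.11.1, DESeq2, bedtools and hg38, without roles. The authors deposited raw gene counts in the layout of HTSeq. Its closing lines were kept out of library sizes: 80.3 to 80.4% of reads were in genes, 8.37 to 8.41% were ambiguous and 6.86 to 7.19% were not unique in the non-directional libraries. For each L1 locus a signal was deposited by the authors, in which reads had been divided by a factor per library. A single read stood for 1.04, 1.22 and 1.12 in wild-type and 0.838, 0.856 and 0.835 in knockout libraries. The limma test on these values and the edgeR test on reads therefore also differ in scaling. Whole reads came out for 100% of values in every non-directional library (tolerance 0.001), and the edgeR test on them called 245 loci higher and 36 lower. That test was added after seeing the data. Strand settings and the handling of reads with several matches are not given in the sources used here.

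The 6 non-directional libraries were fitted with edgeR 4.0.16 (R 4.3.3, glmQLFit and glmQLFTest, filterByExpr with a minimum count of 10 and total of 15, TMM), with Benjamini-Hochberg adjustment over all 13778 genes tested. Standard errors were taken as the size of the log2 fold change over the square root of the F statistic, which is approximate. L1 loci that passed the same filter on recovered reads were tested with limma 3.58.1 on log2(value + 1), which understates changes of low loci. CPM use the total of gene counts. Exon overlaps and lengths came from GENCODE 29 on GRCh38, and promoters from RefSeq on GRCh38.p14. Unstranded reads of overlapping genes cannot be told apart. The scripts were tested on simulated data.

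Genes were named by a rule: each listed gene by role, and up to 4 called genes of each further list. The 38 genes and the further lists were chosen with earlier results of these data known. FAM217B, CHPT1, CASTOR3, FAHD1, AC132938.4, IPO4, the L1 loci, SUN1, YTHDC2, L3MBTL2, CBX3 and the uncalled genes of the further lists were added after their values were seen. The smallest counts the depth can show cover counting error only. Alternatives were other scalings, no filter, DESeq2 1.42.0, a replicate block, leaving out each library and a fit over all libraries. Titles name biological replicates but no separate cultures, and p-values measure only the spread between these libraries. The value of 1 blood cell marker is not reported here.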

Additional observations from a re-analysis of the deposited data

Results flagged for a closer look

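Signals outside the tested comparison stood above the wild type in the directional libraries for 3 genes, each higher in all 3 knockout libraries and not tested. SYCP3 averaged 382 CPM in the directional knockout libraries, CASTOR3, opposite to STAG3, 25.2 CPM, and FAHD1, opposite to MEIOB, 411 CPM. Such a rise without overlap was seen in 10.8% of the 9653 genes with 15 or more directional reads. AC132938.4, opposite to TEX19, was lower without overlap, CHPT1 and IPO4 overlapped, and BOLL, with 2 counts in each knockout library and none in the wild type, stayed below 3 counts. The strand of the directional reads was not tested, so these values were not read as transcription of the named genes. In the non-directional libraries SYCP3 had 4 to 11 counts and was not tested. CASTOR3 was not called there (edgeR adjusted p = 0.68), and FAHD1 and CHPT1 rose (log2 fold changes 0.27 and 0.25).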

How the results depend on the processing

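The number of genes called went from 7089 to 1074 and that of germline genes from 11 to 6 when a change of 1 or more on the log2 scale was required. Leaving out 1 library at a time gave 6394 to 7135 genes and 11 to 12 germline genes. With a replicate block 7074 genes and 11 germline genes were called. The deviations of libraries with 1 number were uncorrelated on average (-0.0047), so the numbers do not pair them. Without a filter 13 germline genes were called, by the DESeq2 Wald test 10, and with the knockout libraries summed as 1 sample 12. One fit over all 12 libraries changed the split of all calls from 3517 higher and 3572 lower to 2413 higher and 4170 lower and left 9 higher and 2 lower among the germline genes. Of the refits of single germline genes, 163 kept direction and side of the threshold, and DPPA2 lost its call in 3. DMC1, not called, changed sign without wild-type replicate 2 (2.8e-06) and without knockout replicate 3 (0.28), within a leave-one-out range of -0.20 to 0.28. Subtracting the median of neighbours within 2 Mb turned DPPA4 to -0.0053 and the uncalled DMC1 from -0.02 to 0.02, and it moved the 12 tested genes other than DPPA4 by less than the spread between replicates. The L1PA4 locus kept its call in 8 of 8 alternatives, which were chosen after seeing the data, the replicate block among them. The filter on low counts left out 25 germline genes, 11 of which had no read.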
